A study of Mus musculus with 6 samples.

Results

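The repolarising potassium channel subunits are 9 genes whose products carry or shape the potassium currents that end the action potential of the heart muscle cell. Their members were all probe sets whose platform annotation names exactly 1 of the genes Kcnd2, Kcnd3, Kcnip2, Kcna5, Kcnq1, Kcne1, Kcnh2, Kcnj2 and Kcnj11, which gave 19 of the 45101 probe sets of the array for 9 of its 18193 named genes. The left ventricle, whole tissue that holds several cell types, was taken from male C57BL/6 mice aged 12 to 16 weeks, as 3 samples in which both copies of the kinase gene Akt2 carried a targeted disruption (akt2-/-, the knockout) and 3 wild type samples of matched age. The line had been backcrossed to C57BL/6 before use, and the labels name neither a Cre driver nor a treatment. Each sample was hybridised to its own Affymetrix array, and no label ties a sample to an animal of its own. The p-values below therefore reflect the spread among these samples, which may be technical.

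A potassium current that flows out of the cell returns the membrane to its resting voltage after each beat. In the adult mouse ventricle the fast part of this work is done by the transient outward current, built from Kv4 pore subunits and the calcium-binding protein KChIP2, and by ultrarapid delayed rectifier currents, while inward rectifiers hold the resting voltage. The delayed rectifiers of KCNQ1 and of KCNH2 (hERG), which dominate in human ventricle and whose mutation causes long QT syndromes, contribute little in the adult mouse.

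The deposited value is a MAS5 signal, a linear brightness of each probe set on each array. Genotypes were compared with limma on log2(signal + 21.7), a scale on which the changes of dim genes are understated. Testing covered the 22519 probe sets whose mean log2 value reached 6.87, with Benjamini-Hochberg adjustment over all of them and a threshold of 0.05. Of the 19 member probe sets, 12 were tested, covering every member gene but Kcnj2. The other 7 lay below that filter, with signals between 4.6 and 207.8, and are given by value only. Akt2 itself, by its brightest probe set, had signals of 2362.6, 2561.3 and 2505.4 in wild type replicates 1, 2 and 3 and of 477.8, 394.5 and 255.4 in the knockout, a log2 difference of -2.69 (SE 0.249). It was -2.26 for replicate 1 and -2.91 for replicates 2 and 3. Even the pooled difference had a limma adjusted p of 0.18 with no block and 0.0877 with the batch block described next. The ventricular light chain gene Myl2, a marker of the labelled tissue, had a signal of at least 56149 in every sample. Of 6 ventricular cardiomyocyte markers 5 were lower in the knockout, with a median log2 difference of -0.12 and overlapping groups for each. Their summed signal was 277190 to 943590 in the wild type, highest in replicate 1, and 336320 to 559220 in the knockout. The part of cardiomyocyte content in the member values was not tested.

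In both genotypes the array of replicate 1 differed from the other 4 in its controls. Their median signals were 134.3 to 167.2 against 88.4 to 91.2, and the median of their 18S ribosomal RNA control probe sets was 57275 to 82330 against 152.7 to 446.7. They are called a batch here, although the labels name none. Genotype differences are therefore also given within the replicate 1 pair, with 1 array a genotype, and within replicates 2 and 3, with 2 arrays a genotype.

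No member probe set passed the test of knockout against wild type. With no block, 0 of 12 had an adjusted p under 0.05 in limma, as did 0% of all tested probe sets, and the lowest adjusted p of a member was 1.00. Unadjusted p was under 0.05 for 1 of 12, Kcnd3, against 2.01% of all tested probe sets. With the batch as a block it was under 0.05 for 3 of 12, Kcnd2 by 1422835_at, Kcnd3 and Kcne1, against 7.77%. The lowest limma adjusted p of a member was then 0.625, where 0.00444% of all probe sets passed. With the replicate number as a block the same count was also 3 of 12, against 5.63%. In replicates 2 and 3 alone it was 4 of 12, against 9.31%. The members' median log2 difference was -0.087, with 5 higher and 7 lower in the knockout, and that of all tested probe sets was 0.0077. In 3 of the 12 the knockout arrays all lay on one side of the wild type arrays, as in 7.3% of all tested probe sets. Of these 1 was higher, against 3.64%, and 2 were lower, against 3.66%. The 3 were Kcnd3, Kcne1 and 1 of 3 tested Kcnd2 probe sets, 1422834_at. With the batch block its limma unadjusted p was 0.135, and that of the Kcnd2 probe set 1450773_at was 0.383. The groups of 1422835_at overlapped, so no Kcnd2 probe set met both criteria. In whole ventricle, fewer cells of a type and less RNA per cell cannot be told apart.

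**Figure D1:**
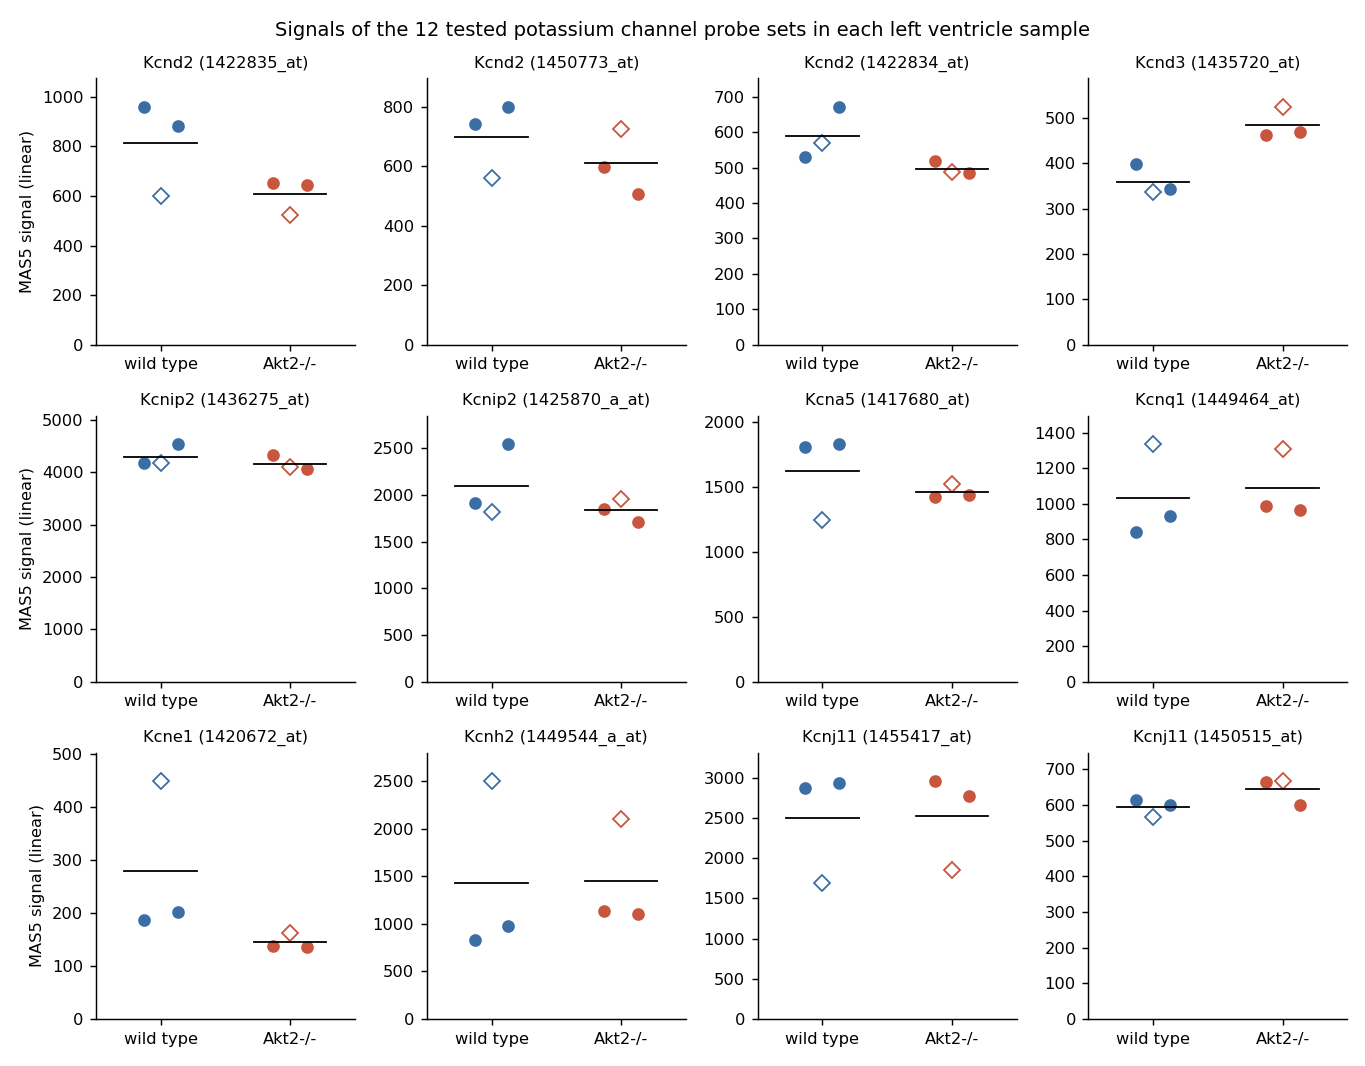
MAS5 signal on a linear axis from 0 for the 12 tested member probe sets, wild type in blue and Akt2-/- in red. Each point is 1 array, open diamonds are the replicate 1 arrays, filled circles are replicates 2 and 3, and the line is the mean of 3. The groups are apart for Kcnd3, Kcne1 and the Kcnd2 probe set 1422834_at. In both genotypes the diamonds lie above the circles for Kcnh2, Kcnq1 and Kcne1. They lie below the circles in both for the Kcnj11 probe set 1455417_at and the Kcnd2 probe set 1422835_at.

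The pore subunits of the transient outward current had differences of opposite sign. Kcnd2 encodes Kv4.2, the main pore subunit of the fast transient outward current in mouse ventricle, and Kcnd3 encodes the related Kv4.3. The 300 bases around the start of each gene, from 250 before to 50 after, are shown because both genes encode pore subunits of 1 current and their differences had opposite signs. They are RefSeq sequences of build GRCm38.p6, chr6:21215096-21215395 for Kcnd2 and chr3:105451640-105451939 for Kcnd3, both on the plus strand, written 5′ to 3′ with GC boxes in capitals.
Kcnd2: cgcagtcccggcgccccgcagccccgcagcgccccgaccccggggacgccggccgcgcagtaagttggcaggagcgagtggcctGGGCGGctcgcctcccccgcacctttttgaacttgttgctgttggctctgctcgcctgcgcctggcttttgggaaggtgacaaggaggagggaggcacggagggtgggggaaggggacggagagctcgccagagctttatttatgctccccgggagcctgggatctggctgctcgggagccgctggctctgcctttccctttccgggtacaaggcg
Kcnd3: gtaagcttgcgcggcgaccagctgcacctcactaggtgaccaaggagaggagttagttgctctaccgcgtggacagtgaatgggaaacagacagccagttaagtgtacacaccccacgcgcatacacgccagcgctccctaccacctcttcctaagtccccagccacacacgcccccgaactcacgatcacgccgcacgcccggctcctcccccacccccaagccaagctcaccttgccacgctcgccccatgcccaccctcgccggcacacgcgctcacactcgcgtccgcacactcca
The search covered 4 motifs on both strands. The GC box GGGCGG, present in 35.7% of 32851 mouse promoters of this length, occurred 1 time in the Kcnd2 window, at position -166 from the start, and 0 times in that of Kcnd3. The TATA box TATAAA (13.6% of promoters), the FoxO-type motif GTAAACA (3.65%) and the Iroquois-type motif ACANNTGT (7.38%) each occurred 0 times in both windows. Of the 9 member genes, 6 had an entry in that table.

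The brightest Kcnd2 probe set, 1422835_at, had signals of 599.9, 959.5 and 881.7 in wild type replicates 1, 2 and 3 and of 523.2, 653.7 and 645.2 in the knockout. The lowest wild type sample, replicate 1, lay below knockout replicates 2 and 3, so the groups overlapped, but within each batch the knockout was lower. Its log2 difference was -0.39 (SE 0.233, n = 3 each), which was -0.19 for replicate 1 and -0.49 for replicates 2 and 3. The limma unadjusted p was 0.141 with no block and 0.0215 with the batch block, and the adjusted p was 1.00 and 0.625. The second probe set, 1450773_at, had 558.4, 740.7 and 798.7 in wild type against 723.4, 598.3 and 506 in the knockout. Here the replicate 1 pair went the other way, with a log2 difference of 0.36 against -0.47 in replicates 2 and 3, and the pooled value was -0.19 (SE 0.224). The third, 1422834_at, had 567.8, 530.5 and 670.9 against 486.3, 518.5 and 484.6, so that every knockout sample was below every wild type sample. Its log2 difference was -0.23 (SE 0.174), close to the -0.21 and -0.24 within the batches. A dim Kcnd2 probe set, 1447764_at, had signals of 4.6 to 27.9 and lay below the filter. Its log2 difference was 0.11, opposite in sign to the tested probe sets, with -0.67 for replicate 1 and 0.50 for replicates 2 and 3.

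Kcnd3 had the opposite sign. Its only tested probe set, 1435720_at, had signals of 337.9, 398.6 and 342.8 in wild type replicates 1, 2 and 3 and of 524.7, 462.9 and 468.9 in the knockout. All 3 knockout samples were above all 3 wild type samples. The log2 difference was 0.41 (SE 0.171), which was 0.60 for replicate 1 and 0.32 for replicates 2 and 3. The limma unadjusted p was 0.0475 with no block, 0.02 once the batch was a block and 0.061 over replicates 2 and 3, and the adjusted p was 1.00, 0.625 and 0.546. The other 3 Kcnd3 probe sets were dim and were not tested. In 1442555_at the knockout signals were 207.8, 58.1 and 91.7 against 36.8, 56.4 and 54.3, with the knockout above the wild type in every sample but by most in replicate 1. In 1447513_at they were 79.4, 62.8 and 63.3 against 26.8, 24.9 and 63.2, and the lowest knockout sample was below the highest wild type sample. In 1426070_a_at the knockout had 126.8 in replicate 1 against 16 in the wild type, whereas replicates 2 and 3 differed by 0.014 on the log2 scale. The log2 differences of these 3 were 0.86, 0.64 and 0.67. They were 1.97, 1.06 and 1.98 for replicate 1 and 0.30, 0.43 and 0.014 for replicates 2 and 3.

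The ratio of the Kcnd3 signal to the Kcnd2 signal within an array does not depend on how that array was scaled. This comparison was chosen after the values were seen and is given without a test. The ratio's own size has no meaning between different probes, but its change between samples has. With Kcnd2 read by 1422835_at, the ratio was 0.563, 0.415 and 0.389 in wild type replicates 1, 2 and 3 and 1.00, 0.708 and 0.727 in the knockout. It was higher in every knockout sample, and the mean log2 ratio differed by 0.83, with 0.83 for replicate 1 and 0.84 for replicates 2 and 3. With Kcnd2 read by 1450773_at the ratio was 0.605, 0.538 and 0.429 in the wild type and 0.725, 0.774 and 0.927 in the knockout, a log2 difference of 0.63 with 0.26 and 0.82 within the batches. With 1422834_at it was 0.595, 0.751 and 0.511 against 1.08, 0.893 and 0.968, a log2 difference of 0.68 with 0.86 and 0.58. These are log2 values of the plain ratios, and with 21.7 added to each signal the differences were 0.80, 0.60 and 0.65. The knockout samples lay above the wild type samples by all 3 Kcnd2 probe sets. These read the same 6 RNA samples and 1 shared Kcnd3 probe set and are not independent. The ratios combine signals already given above, higher for Kcnd3 and with lower pooled values for Kcnd2, and are not separate evidence. How often ratios of other gene pairs separate the genotypes was not measured.

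**Figure D2:**
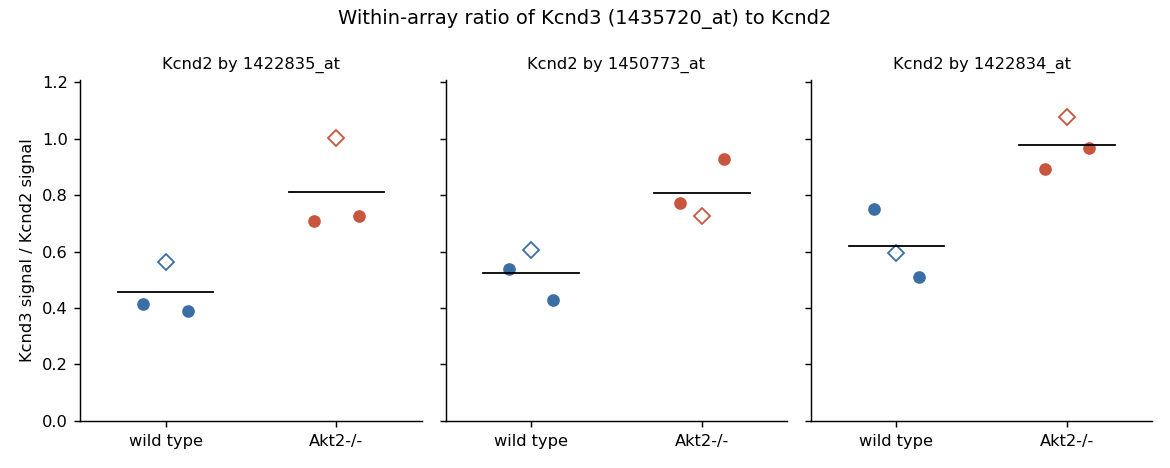
Ratio of the Kcnd3 signal (1435720_at) to the Kcnd2 signal within each array, on a linear axis from 0, with 1 panel for each tested Kcnd2 probe set. Points are arrays, open diamonds are the replicate 1 arrays, and lines are means of 3. Wild type arrays sit between 0.389 and 0.751 and Akt2-/- arrays between 0.708 and 1.08, with no overlap inside a panel.

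Kcnip2 encodes KChIP2, the accessory protein that Kv4 channels need to reach the surface in mouse ventricle. Its brightest probe set, 1436275_at, had signals of 4182.1, 4170.8 and 4539.9 in the wild type and 4094.1, 4339.5 and 4069.3 in the knockout. The groups overlapped, and the log2 difference was -0.044 (SE 0.161). It was -0.031 for replicate 1 and -0.050 for replicates 2 and 3, and turned to 0.062 when the arrays were scaled to the same median. That scaling moved the median difference of all tested probe sets from 0.0077 to 0.11, so that relative to the median the value was lower on both scales. The second probe set, 1425870_a_at, had 1819.7, 1918 and 2544 against 1955.3, 1847.6 and 1711.8 (log2 -0.17, SE 0.198), with 0.10 and -0.31 within the batches. A further, dim probe set, 1421783_a_at, had 107.3, 72.6 and 61.1 in the wild type and 31.8, 46.2 and 39 in the knockout. All its knockout samples were below all wild type samples, with a log2 difference of -0.73, which was -1.27 for replicate 1 and -0.46 for replicates 2 and 3. It lay below the filter, and when all probe sets were tested its limma unadjusted p was 0.0308 and its adjusted p 1.00. The 3 Kcnip2 probe sets thus gave differences from -0.044 to -0.73, the largest in the dimmest of them.

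Kcna5 encodes Kv1.5, a pore subunit of the slowly inactivating, ultrarapid delayed rectifier current of mouse ventricle and of human atrium. Its signals were 1243.1, 1802.2 and 1828 in wild type replicates 1, 2 and 3 and 1523.1, 1420.1 and 1436.3 in the knockout. The wild type held both the lowest and the highest samples. The log2 difference was -0.13 (SE 0.209), made of 0.29 for replicate 1 and -0.34 for replicates 2 and 3. In replicates 2 and 3 alone the limma unadjusted p was 0.0308 and the adjusted p 0.517.

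Of the slow delayed rectifier, the accessory subunit and the pore subunit differed unalike. Kcne1 encodes minK, the single-span subunit that slows the opening of the channel formed by Kcnq1. Its tested probe set, 1420672_at, had signals of 449.3, 187.8 and 203 in wild type replicates 1, 2 and 3 and of 162.3, 137.4 and 136 in the knockout. Every knockout sample was below every wild type sample, and wild type replicate 1 was far above the rest. The log2 difference was -0.75 (SE 0.331), the largest of the 12 tested members, which was -1.36 for replicate 1 and -0.45 for replicates 2 and 3. Without wild type replicate 1 it was -0.38. The limma unadjusted p was 0.058 with no block, 0.0111 once the batch was a block and 0.0124 over replicates 2 and 3, and the adjusted p was 1.00, 0.625 and 0.491. The dim second probe set, 1441035_at, had 81.3, 134.6 and 17.1 against 19.4, 79.5 and 42.1, and wild type replicates 2 and 3 lay on either side of both knockout samples of those numbers. This gave a log2 difference of -0.41, with -1.33 and 0.045 within the batches.

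Kcnq1, the pore subunit of the slow delayed rectifier, had 1335, 838.9 and 930.8 in the wild type and 1307.3, 986.4 and 967.5 in the knockout. The replicate 1 samples were the highest of each genotype, and the groups overlapped. Its log2 difference was 0.084 (SE 0.243), with -0.030 and 0.14 within the batches.

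Kcnh2 encodes the pore subunit of the rapid delayed rectifier, the target of many drugs that lengthen the QT interval. Its signals were 2501.2, 827.7 and 976 in wild type replicates 1, 2 and 3 and 2106.2, 1139.5 and 1100.6 in the knockout. In replicates 2 and 3 both knockout samples were above both wild type samples, and in the replicate 1 pair the knockout was lower. The log2 difference was 0.13 (SE 0.467), which was -0.25 for replicate 1 and 0.31 for replicates 2 and 3, where the limma adjusted p was 0.557.

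The inward rectifier members had log2 differences between -0.065 and 0.11. Kcnj2 encodes Kir2.1, the main pore subunit of the current that holds the resting voltage. Its single probe set had signals of 10.6, 73 and 74.1 in the wild type and 10.2, 73.3 and 62.7 in the knockout. It was therefore dim on every array, near the bottom of the scale in both replicate 1 arrays, and was not tested. The log2 difference was -0.065, and without each array in turn it ranged from -0.59 to 0.43. Kcnj11 encodes Kir6.2, the pore of the ATP-sensitive channel that opens when energy runs low. Its probe set 1455417_at had 1688.6, 2869 and 2938 in the wild type and 1846.9, 2957.4 and 2776.5 in the knockout, with a log2 difference of 0.030 (SE 0.300) that was 0.13 for replicate 1 and -0.019 for replicates 2 and 3. The probe set 1450515_at had 566.9, 614.5 and 600.5 against 666.9, 664.5 and 599.7 (log2 0.11, SE 0.162), with overlapping groups and with 0.23 and 0.054 within the batches.

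**Figure D3:**
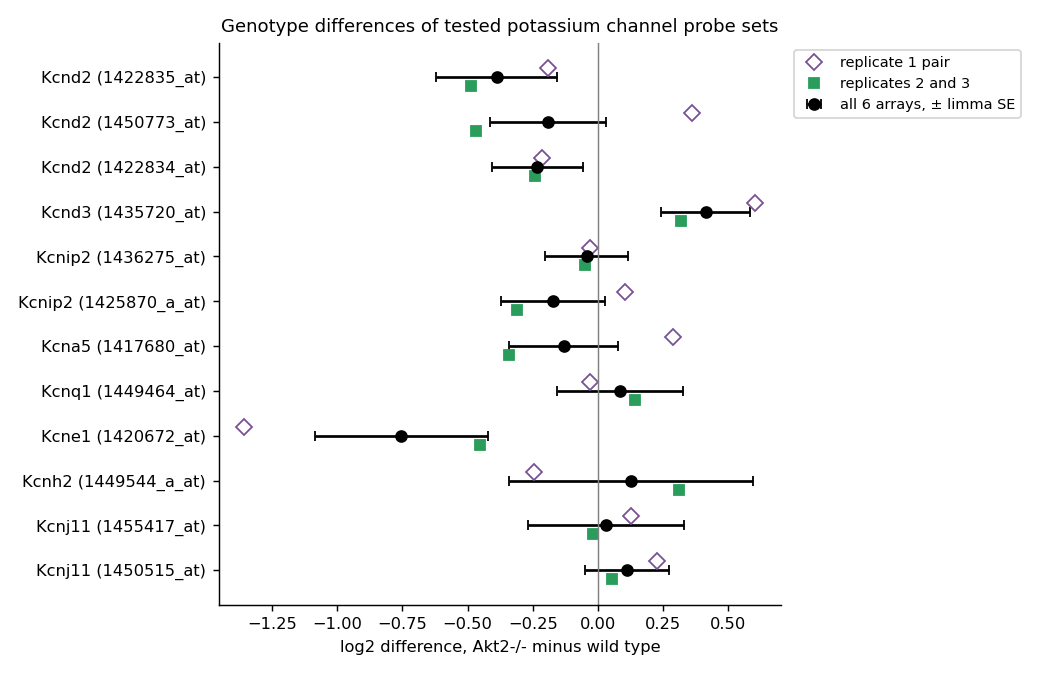
Log2 difference, Akt2-/- minus wild type, of the 12 tested member probe sets. Black circles are all 6 arrays with the limma SE and no block, open diamonds the replicate 1 pair and green squares replicates 2 and 3. Kcnd3 lies above 0 and Kcne1 below 0 in both batches, while the diamond and the square fall on opposite sides of 0 for Kcna5, Kcnh2, Kcnq1, 1 Kcnd2, 1 Kcnip2 and 1 Kcnj11 probe set.

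Whether the genotype difference itself changed between the batches was tested as an interaction in limma. It passed for 0 of 12 member probe sets at an adjusted p under 0.05, against 0.635% of all tested probe sets, and 3 of 12 had an unadjusted p under 0.05, against 20.9%. These were Kcne1 (-0.90 on the log2 scale, SE 0.205, adjusted p 0.113), the Kcnd2 probe set 1450773_at (0.83, SE 0.242, adjusted p 0.162) and Kcna5 (0.63, SE 0.198, adjusted p 0.18). The direction was the same in both batches for 6 of the 12 probe sets and opposite for 6. By the brightest probe set of each gene it was the same for 4 of 8 tested member genes, and for 50.1% of all 11075 tested genes.

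The members were also compared between the batches. In a model with genotype, 4 of 12 member probe sets differed between the replicate 1 arrays and the others, against 33.1% of all tested probe sets, a share near the background. Of these 2 were higher, against 20%, and 2 lower, against 13.2%. Kcnh2 was higher in the replicate 1 arrays by a log2 difference of 1.18 (SE 0.172, limma adjusted p 0.00967), and Kcnq1 by 0.50 (SE 0.125, adjusted p 0.031). Kcnj11 by 1455417_at was lower, at -0.70 (SE 0.120, adjusted p 0.0127), and so was Kcnd2 by 1422835_at, at -0.45 (SE 0.133, adjusted p 0.0472). The other Kcnj11 probe set, 1450515_at, had -0.0098 (SE 0.125). Of all probe sets, 4497 were higher and 2967 lower. With arrays scaled to the same median the split was 692 and 11728, the median of all probe sets moved from 0.10 to -0.59 and 8 of 12 members passed. On that scale Kcnq1 turned to -0.23, and Kcnh2 had 0.45 and no longer passed (limma adjusted p 0.0527). With quantile normalization it was 2934 and 3701, and 4 members passed. Without any 1 of the 4 arrays of replicates 2 and 3, 2 members passed.

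Other potassium channel genes and their partners were taken from a list of 50, of which 48 had a probe set and 22 were tested by their brightest one. In the knockout 15 of the 22 were higher and 7 lower, with a median log2 difference of 0.14. Of all tested genes 53.3% were higher, and their median was 0.015. The direction was the same in both batches for 7 of the 22 and opposite for 15. It was the same for 50.1% of all tested genes. No gene of the list passed, as 0% of all genes did, and 1 of 22 had an unadjusted limma p under 0.05 with no block, against 2.17%. With the batch block 3 of 22 had one, Irx3, Irx5 and Kcnj5, against 8.32%, and with an adjusted p under 0.05 there were 0 of 22, against 0.00903% of all genes.

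Irx3 and Irx5 encode Iroquois transcription factors of the ventricle. Irx5 is known in mice as a repressor of Kcnd2 that sets its gradient across the ventricular wall, and Irx3 for its part in the conduction system. Irx3 had signals of 2137.6, 1667.1 and 1815.1 in wild type replicates 1, 2 and 3 and 2953.8, 2627.2 and 2625.2 in the knockout. All knockout samples were above all wild type samples. The log2 difference was 0.55 (SE 0.169), which was 0.46 for replicate 1 and 0.59 for replicates 2 and 3, and the limma adjusted p was 1.00 with no block and 0.476 with the batch block. Irx5 had 720.4, 669.5 and 650.1 against 741.5, 1044.6 and 968, also without overlap, but with a narrow gap in the replicate 1 pair. Its log2 difference was 0.41 (SE 0.184), with 0.040 and 0.59 within the batches, and an adjusted p of 1.00 and 0.586. Irx3 and Irx5 were the only 2 of the 22 listed genes whose groups did not overlap, a share near the 7.46% of all genes. Both were higher in the knockout, against 3.9%, and 0 were lower, against 3.56%.

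Among inward rectifiers outside the members, Kcnj5 and Kcnj3 encode the pore subunits of the acetylcholine-gated current, which is strongest in the atria. By its brightest probe set, Kcnj5 had 1119.4, 683.1 and 714.7 in the wild type and 1418, 803.7 and 925.2 in the knockout. It was higher in the knockout within each batch (log2 0.31, SE 0.288, with 0.34 and 0.30). The other tested Kcnj5 probe set, which was dimmer, had a log2 difference of only 0.061, with 0.062 and 0.061 within the batches. Its groups overlapped, also within replicates 2 and 3, so the size for Kcnj5 depended on the probe set. Kcnj3 had a log2 difference of 0.23 (SE 0.348), with 0.37 and 0.16 within the batches. Markers of atrial muscle varied between the samples: the atrial light chain gene Myl7 had 1101.2, 96.5 and 1246.3 in the wild type and 1861.2, 1320.5 and 635.2 in the knockout. Of 6 atrial markers 5 were higher in the knockout, with a median of 0.34, and none lay below the filter. The groups overlapped for all 5 of these. Stard10 was lower, at -0.41, and was the only 1 of the 6 whose groups did not overlap. The summed signal was 17183 to 18587 in the wild type and 17685 to 21570 in the knockout. Most of that sum was Nppa, with 12804 to 14476 against 11646 to 18373. The part of atrial muscle in the values of Kcna5, Kcnj3 and Kcnj5 was not tested. Conduction system markers had a summed signal of 323.7 to 484.5 against 215.6 to 581.5 over the 3 of 5 with a probe set, and Gja5 lay below the filter. Their part in the value of Irx3 was not tested.

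In the values of the remaining partners, the difference for replicate 1 is given before that for replicates 2 and 3. Kcnj12, a further pore subunit of the resting current, had -0.031 (SE 0.467), with -0.45 and 0.18. Abcc9, the sulphonylurea receptor that pairs with Kcnj11, had 0.085 (SE 0.224), with 0.15 and 0.054, by a probe set whose suffix marks probes shared between transcripts. Kcnj8, the vascular pore subunit of the ATP-sensitive channel, had -0.12 (SE 0.157), with 0.0079 and -0.18. All 5 endothelial markers were lower in the knockout, with a median of -0.20. Their summed signal was 6896.1 to 9499.3 against 6068.9 to 8334.8, and none lay below the filter. The groups did not overlap for 3 of them, Pecam1, Tek and Vwf, against 3.56% of all genes that were lower without overlap. Of 5 pericyte markers, which include Kcnj8 and Abcc9 themselves, 4 were higher and 1, Kcnj8, was lower, with a median of 0.033. Of 5 vascular smooth muscle markers 3 were higher and 2 lower, with a median of 0.16, and 1 lay below the filter. The part of any of these cell types in the Kcnj8 value was not tested. The background channel gene Kcnk3 had 0.19 (SE 0.182), with -0.0023 and 0.28, by its brightest probe set. Its other tested probe sets had 0.0041, with -0.41 and 0.21, and 0.019, with -0.23 and 0.14. Kcnk6, a relative of Kcnk3, had -0.22 (SE 0.187), with -0.40 and -0.14. Kcnk2 had -0.36 (SE 0.307), with -1.16 and 0.040. Kcng2, a silent subunit that modifies other voltage-gated channels, had 0.31 (SE 0.442), with -0.24 and 0.59. In replicates 2 and 3 alone its limma unadjusted p was 0.00258 and its adjusted p 0.384, and without each array in turn the pooled difference ranged from 0.050 to 0.81. Kcnn1, a calcium-activated channel, and Kcnip1, a relative of Kcnip2, had 0.50 (SE 0.341) and 0.46 (SE 0.436) by their brightest probe sets. These values came from the replicate 1 pair, with 1.51 and 1.84 there against -0.011 and -0.23 in replicates 2 and 3. The other tested Kcnn1 probe set, slightly dimmer, had the opposite sign, at -0.15, with -0.63 and 0.091. The direction for Kcnn1 therefore depended on the probe set. Kcna4, Kcnd1, Dpp6 and Kcne2 lay below the filter.

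**Figure D4:**
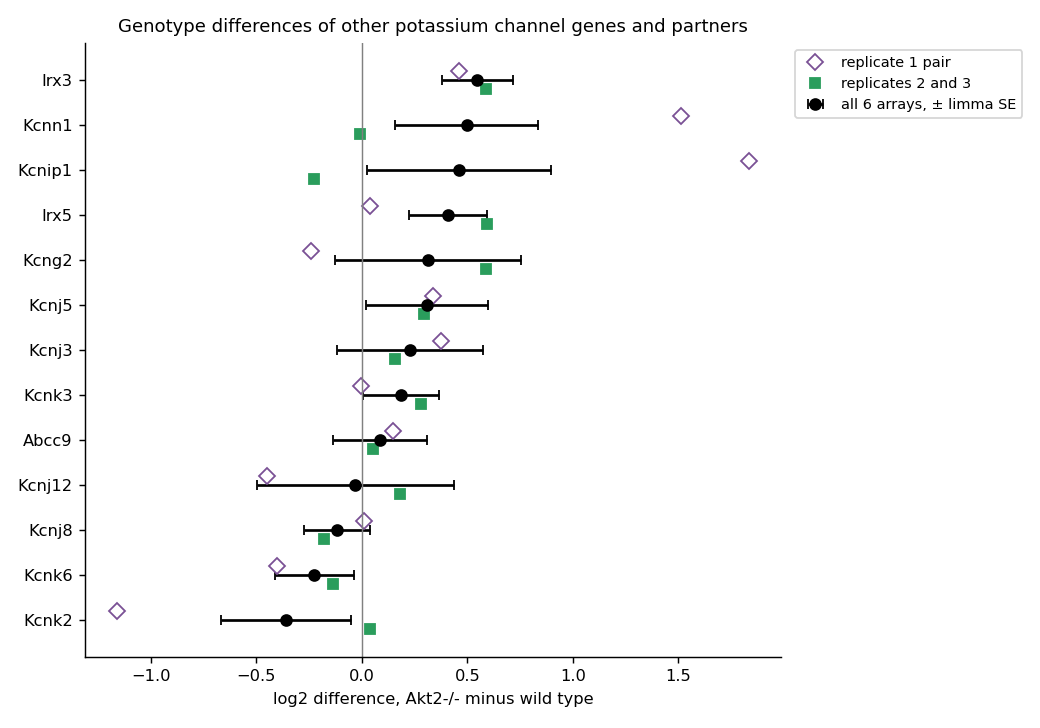
Log2 difference, Akt2-/- minus wild type, of the 13 named and tested genes outside the members, by their brightest probe set. Black circles are all 6 arrays with the limma SE and no block, open diamonds the replicate 1 pair and green squares replicates 2 and 3. Irx3 has all 3 marks between 0.46 and 0.59, and the diamonds of Kcnn1 and Kcnip1 lie far to the right of their squares.

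For each tested member gene, the gene with the most similar pattern over the 6 arrays was found among 11074 others, as the smallest root mean square difference of log2 values centred within each batch. It was Hnrnpu for Kcnd2 (0.0311), Rab9 for Kcnd3 (0.0301), Ube2z for Kcnip2 (0.00952), Gimap6 for Kcna5 (0.0102), Scnm1 for Kcnq1 (0.00927), 5830454E08Rik for Kcne1 (0.0274), Car14 for Kcnh2 (0.0204) and Pgm5 for Kcnj11 (0.0159). Differences this small are the lowest of many candidates over few arrays and are given as a description.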

How the data were processed

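RNA of 6 mouse left ventricle samples was measured, 1 array each. The deposited values are intensities, linear signals that the authors computed with MAS5, per the submitters' processing notes. Its version and settings are not given in the sources used. The trimmed mean of the deposited signals was 500 on every array, a scaling that was kept. Detection calls were not used here.

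Tests leave out 64 control probe sets. The pseudocount added before log2 is the 20th percentile of the signals, 21.7. Of the other 45037 probe sets, the 22519 whose mean log2 reached the median of 6.87 entered limma 3.58.1 under R 4.3.3 (lmFit, eBayes, no covariate), with Benjamini-Hochberg adjustment. A gene-level fit took 1 probe set, the brightest, for 11075 genes. GEO's platform annotation gives 1 symbol to 34945 probe sets and several to 932, and 9160 are unnamed here. Errors of log2 differences are limma standard errors (SE). The number of arrays limits the precision.

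The members and lists were chosen with earlier results of these data known. Genes were named by rule: all members, 12 partners whatever their result, and 6 others of the list by lowest unadjusted p. Of the partners, 1 is not reported here. The Kcne5 gene of the list is matched as Kcne1l. After subtracting each genotype's mean, arrays with the same replicate number correlated across probe sets at 0.61, 0.45 and 0.39, and replicates 2 and 3 correlated across numbers at 0.44 and 0.36. These correlations set replicate 1 apart but cannot show a pairing of replicates 2 and 3, whose values were close within and across numbers. No label states a pairing. The replicate number was fitted as a block as an alternative. Other alternatives were pseudocounts, filters, scalings, variance estimates, a batch block and leaving out arrays. The fit was tested on simulated data.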

Additional observations from a re-analysis of the deposited data

How the results depend on the processing

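The count of members, member genes and listed partner genes with an adjusted p under 0.05 for genotype was 0 under every alternative run, including the replicate block (lowest limma adjusted p of a member probe set 0.827), and the replicate block changed no call. The number of arrays and, for 7 member probe sets, dim signal limit what could be seen. For the replicate 1 arrays against the others, 4 members passed, against 2 with no filter on low values, 8 with arrays scaled to the same median and 2 to 2 without each array of replicates 2 and 3. For the difference between batches, 0 passed, against 1 with quantile normalization, Kcne1. Signs turned in these log2 differences. With arrays scaled to the same median, Kcnip2 (1436275_at) was 0.062, Kcnj12 0.065 and Kcnq1 between the batches -0.23. With quantile normalization Kcnj12 was 0.049. In replicates 2 and 3 alone Kcnj11 (1455417_at) was -0.019, Kcnip1 -0.23, Kcnj12 0.18, Kcnk2 0.040 and Kcnn1 -0.011. Without each array in turn, Kcnq1 ranged from -0.053 to 0.28, Kcnh2 from -0.18 to 0.61, Kcnj11 (1455417_at) from -0.23 to 0.24, Kcnip1 from -0.019 to 0.73, Kcnj3 from -0.095 to 0.48, Kcnj12 from -0.32 to 0.47 and Abcc9 from -0.089 to 0.23. Among probe sets below the filter, Kcnj2 ranged from -0.59 to 0.43, Kcnd2 (1447764_at) from -0.14 to 0.38 and Kcne1 (1441035_at) from -0.98 to 0.024. Leaving out 1 array makes the batch uneven between the genotypes, and these fits hold no block. The cause was not tested. The Kcnd3 to Kcnd2 ratio, with alternatives chosen after the data were seen, was also taken without each array in turn. Its log2 difference ranged from 0.67 to 1.00 by 1422835_at. It ranged from 0.49 to 0.74 by 1450773_at and from 0.55 to 0.82 by 1422834_at.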
